A study of Homo sapiens with 6 samples.

Results

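The genes of the integrated stress response and the unfolded protein response were followed in A172 cells, an established human glioblastoma line, after transfection of miR-324 duplexes. The set held 42 genes of 20979 listed symbols, taken by name for their known roles by a choice made with earlier results of these data known: 22 genes of the ATF4 arm and 20 genes of the endoplasmic reticulum arm (the stress sensors ATF6, ERN1 and EIF2AK3, the transcription factor XBP1, folding helpers and degradation factors). All 42 were listed in all 6 libraries, and 41 reached the minimum for testing, a mean of 1 TPM (a level scaled by transcript length and by the library's total). Cells received a miR-324-5p duplex (5p duplex, 2 libraries), a miR-324-3p.1 duplex (3p.1 duplex, 2 libraries) or a control miRNA (control, miNC, 2 libraries). All groups shared the same lipid transfection and the harvest after 1 day. The model is a single line at a single time, no untransfected cells were analysed here, and no duplex concentration is used here. The labels do not say that replicates were separate cultures, so the tests measure only the spread between these libraries.

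In the integrated stress response, kinases that sense amino acid shortage, double-stranded RNA, heme shortage or misfolded proteins phosphorylate eIF2alpha, which lowers general protein synthesis while ATF4 is made more efficiently and switches on genes for amino acid supply. In the unfolded protein response, misfolded proteins in the endoplasmic reticulum activate EIF2AK3 (PERK), ERN1 (IRE1) and ATF6. ERN1 splices the XBP1 transcript, so that an active factor is made, and ATF6 and XBP1 then raise chaperones such as HSPA5. The steady level of a transcript does not show phosphorylation, splicing of XBP1 or cleavage of ATF6.

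Between 13216 and 13536 genes reached 1 TPM in each library. Of the glial and glioma markers, VIM stood at 4788 to 5910 TPM, CD44 at 708 to 929 TPM and NES at 90.9 to 133 TPM, while GFAP reached at most 0.25 TPM and S100B and AQP4 were not listed. SOX2 stood at 1.75 to 3.29 TPM and OLIG2 at 2.75 to 4.98 TPM, while ALDH1L1 reached at most 0.32 TPM and FABP7 at most 0.01 TPM. The astrocyte markers GFAP, S100B, AQP4 and ALDH1L1 were thus at or near 0 in these libraries. Of markers of other cell types, CDH1, KRT14, PECAM1, CDH5, VWF, RBFOX3, SYP and SNAP25 stayed under 1 TPM in every library, and CD3E and HBB were not listed. The others were detected: TUBB3, a tubulin used as a neuronal marker, stood at 246 to 302 TPM, the blood marker PTPRC at 5.52 to 7.48 TPM, and the epithelial markers EPCAM and KRT5 at 1.23 to 3.01 TPM and 0.68 to 2.23 TPM. The control libraries stood apart in interferon-stimulated genes: the median of 10 such genes was 13.2 and 8.87 TPM with the 5p duplex, 9.07 and 12.5 TPM with the 3p.1 duplex, and 71.5 and 236 TPM in control replicates 1 and 2. Every comparison with control therefore also set low against high interferon-gene libraries, and the part of this in the results below was not tested. The fold changes between the duplexes do not use the control levels. Their standard errors and p values do depend on the control libraries, since the spread was estimated over all 6 libraries together.

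The mature miR-324 sequences from RefSeq (GRCh38.p14) are shown because the duplexes are named for them, with the seed (bases 2 to 8) in capitals. The hairpin lies at chr17:7223297-7223379 on the minus strand. The strand of the 3p.1 duplex is not spelled out in the labels, and its first base on the 3p arm is not known here.
miR-324-5p: cGCAUCCCcuagggcauuggug
miR-324-3p: cCCACUGCcccaggugcugcugg

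Seed matches were sought in the longest annotated 3′UTR of each gene (GENCODE 29, GRCh38). A match of 8 bases is the whole seed plus an A opposite the first base of the miRNA. A match of 7 bases is the whole seed, or bases 2 to 7 with that A. A match of 6 bases is bases 2 to 7 alone. A match of 7 or 8 bases to the miR-324-5p seed was present in 5 of the 41 tested members (12.2%), against 14.6% of 11706 other tested genes. The 5 members were VLDLR, CANX, CEBPG, ERN1 and SLC7A5. XBP1, the member that changed most with the 5p duplex, held only a match of 6 bases, a class that was the best match in 7 of 41 members (17.1%) and in 10.4% of other genes. The strongest sites of these 5 members and the site of XBP1 are printed 5′ to 3′ with the matched bases in capitals. XBP1 lies at chr22:28795302-28795307 (minus strand, exon 5), VLDLR at chr9:2659257-2659264 (plus strand, exon 19), CANX at chr5:179730035-179730042 (plus strand, exon 15), CEBPG at chr19:33382248-33382254 (plus strand, exon 2), ERN1 at chr17:64043527-64043533 (minus strand, exon 22) and SLC7A5 at chr16:87830898-87830904 (minus strand, exon 10).
XBP1, 6 bases: tcctgcctactGGATGCttacagtgact
VLDLR, 8 bases: tctcttagaagGGGATGCAgtactgtacaa
CANX, 8 bases: ttttttcatgcGGGATGCAgatgggtgcta
CEBPG, 7 bases: aatcagttgttGGGATGCcagtgcagatc
ERN1, 7 bases: ttgagaggtggGGGATGCtgaggaggggg
SLC7A5, 7 bases: taggggtcctcGGGATGCcgttctgttcc

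SDF2, the member that differed most between the duplexes, had no match to the miR-324-5p seed in its 3′UTR of 633 bases. It held matches to the 3p arm at 2 places on the minus strand of chromosome 17 in exon 3. The first, at chr17:28648893-28648899, matched 7 bases of the seed of the RefSeq 3p sequence. Since the start of the 3p.1 strand is not known here, starts 1, 2 and 3 bases later were also searched. The first place held 7-base matches for the starts 1 and 2 bases later too, and the second, at chr17:28648747-28648754, held an 8-base match for a start 3 bases later. In all, 17 of 41 members (41.5%) and 32.1% of other genes held a match of 7 or 8 bases to the RefSeq 3p seed. The shares were 14 of 41 (34.1%) and 30.9% for a start 1 base later, 11 of 41 (26.8%) and 17.8% for 2 bases later, and 9 of 41 (22.0%) and 28.1% for 3 bases later. An 8-base match to the RefSeq 3p seed was held by 4 members. Their log2 fold changes with the 3p.1 duplex against control were 0.18 (SLC7A5), 0.17 (XPOT), 0.11 (DNAJC3) and 0.03 (CRELD2). For a start 2 bases later such members were ATF3 (0.33) and CEBPB (-0.37). For a start 3 bases later they were SDF2 (-0.79), NUPR1 (-0.26), VLDLR (-0.22) and SLC7A11 (0.07). Matches at every start searched were not particular to SDF2. NUPR1 held matches of the same length as SDF2 for each start, and CALR (-0.04) held a 7-base match for each. A match gives letters only and was not measured as a binding site.
SDF2, RefSeq 3p start: aagttccttggGCAGTGGccatgtcacca
SDF2, start 3 bases later: ttgctggtaaaGGGGCAGAtgctttttatt

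The level of the set as a whole lay close together in all groups. The mean of log2(TPM + 1) over all 42 was 5.64 ± 0.0230 with the 5p duplex, 5.68 ± 0.0293 with the 3p.1 duplex and 5.67 ± 0.0426 in control (SD, n = 2 libraries each). Together the 42 genes held 0.863% and 0.868% of all TPM with the 5p duplex, 0.815% and 0.865% with the 3p.1 duplex, and 0.792% and 0.891% in control. In the mean both 3p.1 libraries lay above both 5p libraries, and all other pairs of groups overlapped in both measures. Most of this TPM was the endoplasmic reticulum arm (0.678% to 0.768% per library), with 0.114% to 0.127% in the ATF4 arm. In the order 5p duplex, 3p.1 duplex and control, the ATF4 arm mean was 4.76 ± 0.0473, 4.77 ± 0.0969 and 4.73 ± 0.0367. The endoplasmic reticulum arm mean was 6.62 ± 0.00375, 6.69 ± 0.0451 and 6.69 ± 0.130, with 6.60 and 6.78 in control replicates 1 and 2. In bulk RNA, fewer expressing cells and less RNA per cell cannot be told apart. Differences were tested with limma on log2(TPM + 1), with Benjamini-Hochberg adjustment over 13400 genes and a threshold of 0.05. Exact permutation of 2 libraries against 2 could reach no p under 0.333, so none was used.

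**Figure D1:**
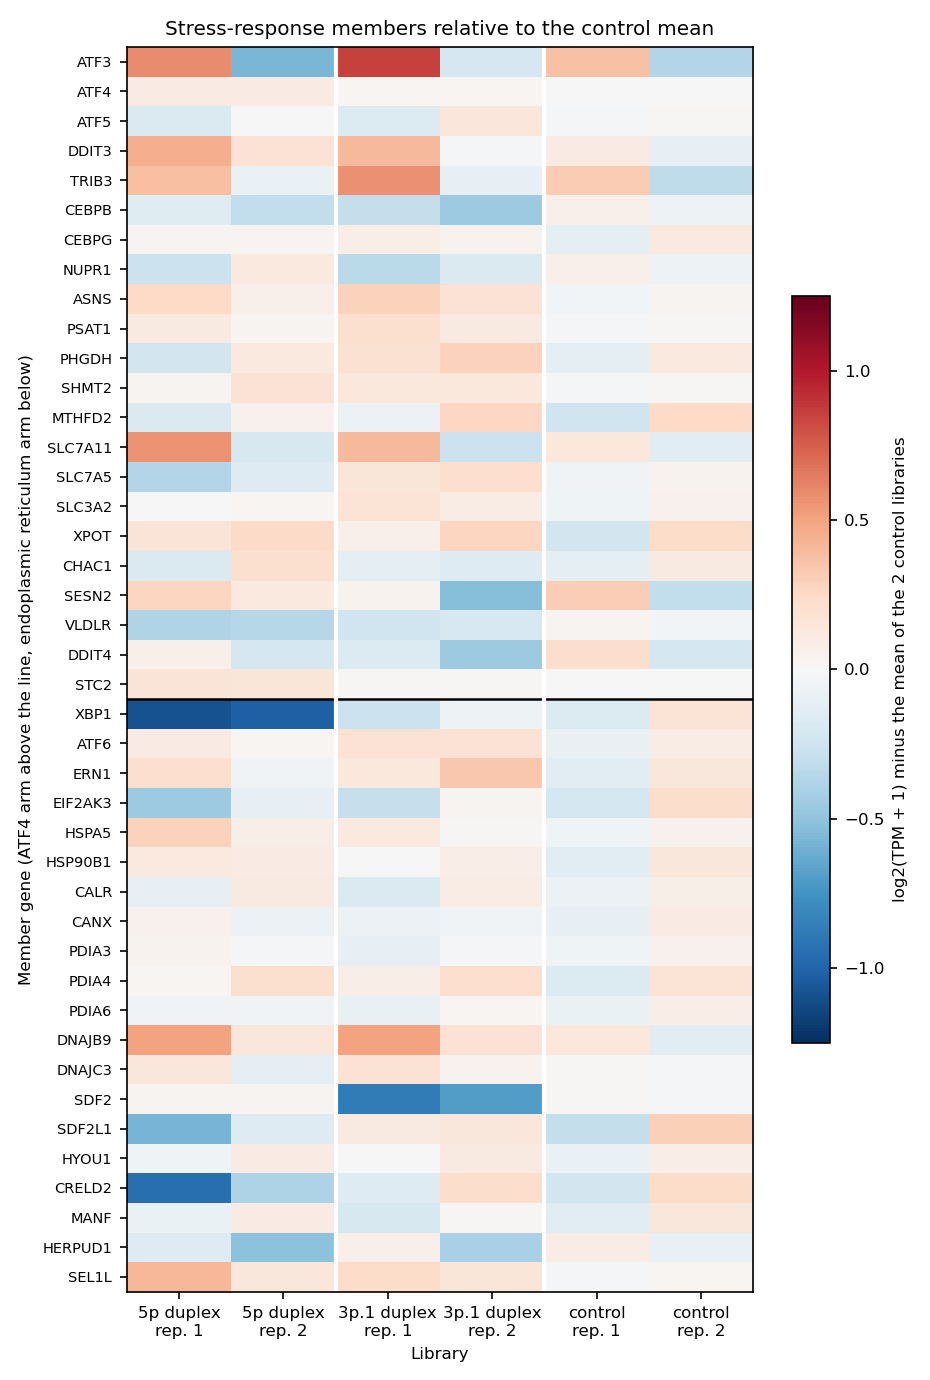
Each row is a member gene and each column a library, and the colour is log2(TPM + 1) minus the mean of the 2 control libraries. XBP1 is dark blue in both 5p duplex libraries and SDF2 in both 3p.1 duplex libraries, while ATF3 differs between the libraries of every group.

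With the 5p duplex against control, XBP1 fell and no other member passed the test. XBP1, the transcription factor that ERN1 activates, stood at 21.9 and 23.1 TPM with the 5p duplex, 39.4 and 45.8 TPM with the 3p.1 duplex, and 42.4 and 54.0 TPM in control. Both 5p libraries lay below all 4 others, and the 3p.1 and control libraries overlapped. The mean was 22.5 ± 0.827 TPM with the 5p duplex and 48.2 ± 8.22 TPM in control (SD, n = 2 each), 0.481 of the control level by the fitted fold. The log2 fold change was -1.06 with an SE of 0.14 and an interval of -1.40 to -0.71 (95%), and the limma adjusted p was 0.0499. The call lay at the threshold. It was kept without control replicate 1 (log2 fold change -1.23, adjusted p = 0.0246) and lost without control replicate 2 (-0.89, 0.121), 5p duplex replicate 1 (-1.02, 0.316), 5p duplex replicate 2 (-1.09, 0.260), 3p.1 duplex replicate 1 (-1.06, 0.119) or 3p.1 duplex replicate 2 (-1.06, 0.118). Over 9 other settings the adjusted p ran from 0.00746 to 0.144, and 4 of the 9 kept the call.

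That was 1 call among 41 members, beside 0.463% of the 13400 genes called in this comparison (0.425% lower, 0.0373% higher). At an unadjusted p under 0.05, 4 members were lower and 0 higher, beside 7.3% and 1.86% of all genes (9.16% in either direction). The median log2 fold change was 0.011 over the members and -0.030 over all tested genes, and 26 of 41 members (63.4%) had a positive value, against 42.7% of all genes. Control replicate 1 decided this majority: without it 15 of 41 members (36.6%) were positive, against 39.5% of all genes, and the median over the members was -0.045. The share over all genes also depended on the scaling, at 56.9% with quantile normalization and 56.8% with median centring, where 63.4% and 70.7% of members were positive. The groups of 2 did not overlap in 15 members (9 higher, 6 lower with the 5p duplex), where 34.8% of all genes did not overlap (12.7% higher, 22.1% lower). The share of members that moved by less than 0.25 on the log2 scale was 75.6%, against 81.2% of all genes.

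The sensors of the endoplasmic reticulum gave no call. ATF6, which is cleaved into a transcription factor, had 45.9 and 43.4 TPM with the 5p duplex, 48.6 and 48.6 TPM with the 3p.1 duplex, and 39.9 and 45.6 TPM in control. ERN1, the enzyme that splices XBP1, stood at 2.06 and 1.56 TPM, 1.90 and 2.34 TPM, and 1.40 and 1.91 TPM in the 5p, 3p.1 and control libraries. EIF2AK3, the kinase of the eIF2alpha branch, had 16.2 and 21.0 TPM with the 5p duplex, 18.3 and 23.1 TPM with the 3p.1 duplex, and 19.3 and 26.3 TPM in control. The 5p and control libraries overlapped for all of these. Their log2 fold changes with the 5p duplex were 0.06 for ATF6 (interval -0.18 to 0.30), 0.08 for ERN1 (-0.36 to 0.52) and -0.28 for EIF2AK3 (-0.76 to 0.21).

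Of the 14 chaperones and folding enzymes, none passed the test with the 5p duplex. Their median log2 fold change was 0.011. HSPA5 (BiP), the main chaperone that holds the sensors inactive, had 1104 and 952 TPM with the 5p duplex, 982 and 912 TPM with the 3p.1 duplex, and 868 and 941 TPM in control. Its 5p libraries lay just above both control libraries, at a log2 fold change of 0.18 (interval -0.08 to 0.44, limma adjusted p = 0.715). The abundant chaperones CALR (1664 to 2035 TPM over the 6 libraries), HSP90B1 (1042 to 1268 TPM) and CANX (1124 to 1289 TPM) had log2 fold changes of 0.01, 0.11 and -0.01. The disulfide isomerases PDIA3, PDIA4 and PDIA6 lay between -0.05 and 0.12. The intervals of these 7 genes stayed within -0.32 and 0.45, so a change as large as that of XBP1 lies outside them.

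Beside XBP1, the lowest log2 fold change of the arm was that of CRELD2, a secreted protein of the endoplasmic reticulum that is raised under stress. CRELD2 had 13.97 and 20.97 TPM with the 5p duplex, 24.6 and 32.4 TPM with the 3p.1 duplex, and 23.4 and 32.7 TPM in control. Both 5p libraries lay below all others, but the 2 libraries of each group also differed widely. Replicate 2 was the higher library in all 3 groups, though no label ties equal numbers together. The log2 fold change against control was -0.66 with an SE of 0.25 (limma adjusted p = 0.474), which did not pass. It became -0.43 when control replicate 2 was left out and -0.39 when 5p duplex replicate 1 was. Each of these fits leaves the replicate numbers of the 2 groups unmatched, so the shared replicate difference enters the value. The interval of SDF2L1, a partner of the HSPA5 cochaperones, reached from -0.93 to 0.19 around a log2 fold change of -0.37. DNAJB9, a cochaperone of HSPA5 and a known target of spliced XBP1, had 29.3 and 22.5 TPM with the 5p duplex, 29.2 and 23.2 TPM with the 3p.1 duplex, and 22.4 and 18.5 TPM in control. The log2 fold change of DNAJB9 against control was 0.32 with the 5p duplex (interval -0.11 to 0.75) and 0.34 with the 3p.1 duplex, and neither passed. Whether the level of XBP1 bears on any of these genes was not tested.

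The pair of degradation factors pointed opposite ways with the 5p duplex, and neither passed. HERPUD1, a membrane protein of the degradation complex, had 51.2 and 40.0 TPM with the 5p duplex, 60.2 and 43.2 TPM with the 3p.1 duplex, and 61.0 and 53.8 TPM in control. SEL1L, the adaptor of the HRD1 ubiquitin ligase, had 40.9 and 33.6 TPM with the 5p duplex, 35.8 and 33.8 TPM with the 3p.1 duplex, and 29.9 and 30.9 TPM in control. The 5p and control libraries overlapped in neither gene. The log2 fold changes were -0.34 for HERPUD1 (limma adjusted p = 0.688) and 0.28 for SEL1L (adjusted p = 0.557).

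**Figure D2:**
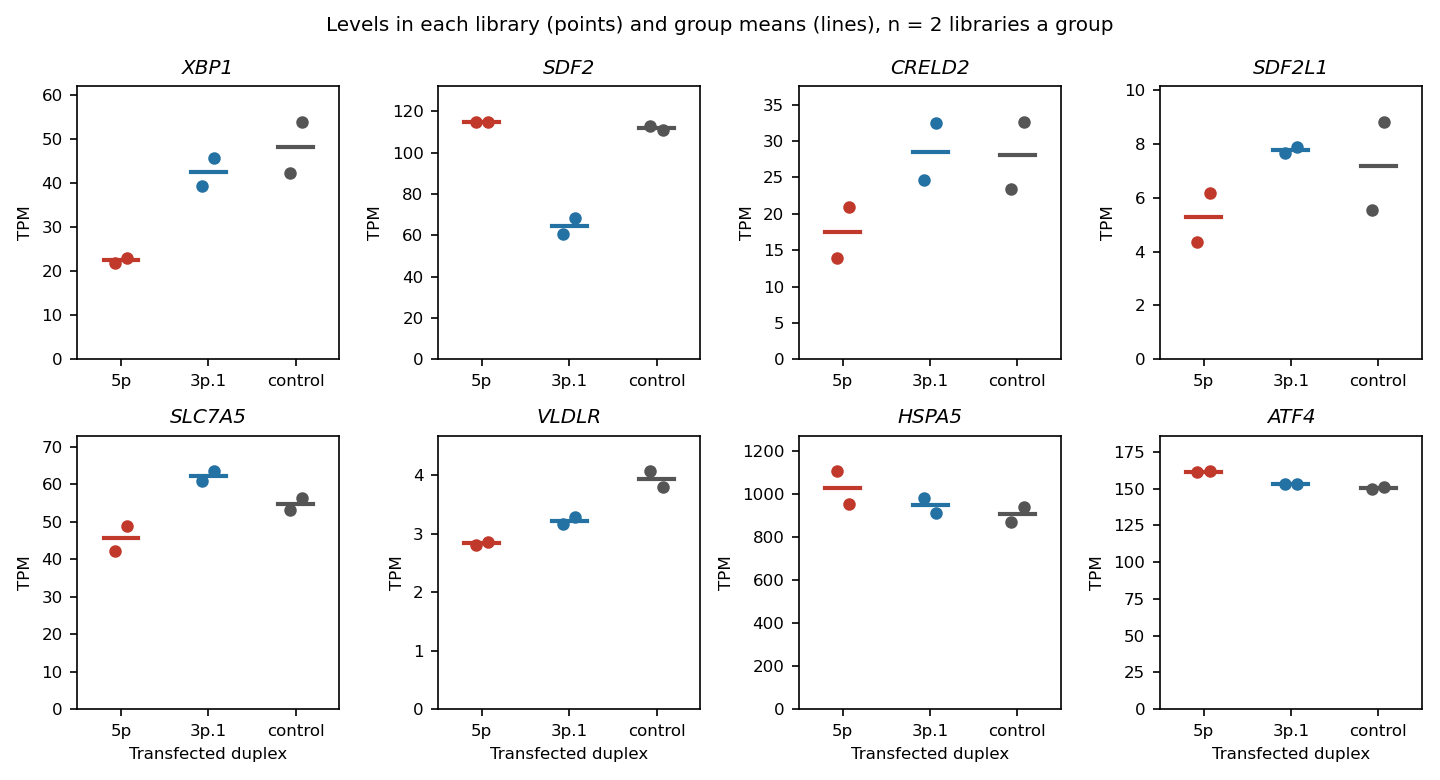
TPM of 8 members in each library (points) with the mean of each group (lines), n = 2 libraries a group, each axis starting at 0. XBP1 and CRELD2 are lowest with the 5p duplex, SDF2 is lowest with the 3p.1 duplex, and HSPA5 and ATF4 lie at like levels in all groups.

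No gene of the ATF4 arm passed the test with the 5p duplex. The 21 tested genes of this arm had a median log2 fold change of 0.011 and ran from -0.36 to 0.31. ATF4, the central factor of the arm, had 161 and 162 TPM with the 5p duplex, 153 and 153 TPM with the 3p.1 duplex, and 149 and 151 TPM in control. The groups did not overlap, yet the step was small, at a log2 fold change of 0.10 (interval -0.08 to 0.28, limma adjusted p = 0.786). DDIT3 (CHOP), the factor linked to cell death under lasting stress, had 58.3 and 48.1 TPM with the 5p duplex, 56.5 and 41.6 TPM with the 3p.1 duplex, and 45.7 and 39.3 TPM in control. TRIB3, a pseudokinase that restrains ATF4, had 19.6 and 13.95 TPM, 22.6 and 13.8 TPM, and 18.9 and 11.7 TPM in the 5p, 3p.1 and control libraries. DDIT3 lay above control in both 5p libraries and TRIB3 overlapped in all groups. Their log2 fold changes with the 5p duplex were 0.31 (interval -0.11 to 0.74) and 0.14 (-0.59 to 0.88).

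Among amino acid and folate-linked genes, ASNS, which makes asparagine, had 23.9 and 20.9 TPM with the 5p duplex, 24.5 and 22.7 TPM with the 3p.1 duplex, and 19.4 and 20.4 TPM in control. All 4 duplex libraries lay above both control libraries, and neither fold change passed the test. SLC7A5, the large neutral amino acid carrier, had 42.1 and 49.0 TPM with the 5p duplex, 61.0 and 63.5 TPM with the 3p.1 duplex, and 53.1 and 56.4 TPM in control. The 3 groups did not overlap. Its partner chain SLC3A2 stood at 119 and 122 TPM with the 5p duplex, 135 and 127 TPM with the 3p.1 duplex, and 115 and 124 TPM in control. The log2 fold change of SLC7A5 with the 5p duplex was -0.26 (interval -0.52 to -0.01, limma adjusted p = 0.522) and that of SLC3A2 was 0.01.

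VLDLR, a lipoprotein receptor with an 8-base and a 7-base match to the miR-324-5p seed, had 2.80 and 2.86 TPM with the 5p duplex, 3.16 and 3.28 TPM with the 3p.1 duplex, and 4.06 and 3.80 TPM in control. The groups did not overlap and the 5p libraries were lowest. Its log2 fold change against control was -0.36 (interval -0.67 to -0.06, limma adjusted p = 0.438). CANX, which also held an 8-base match, was at -0.01 (interval -0.26 to 0.25). CEBPG and ERN1, with a 7-base match each, were at 0.04 and 0.08. STC2, a secreted glycoprotein, lay below the minimum for testing, with 0.28 and 0.27 TPM with the 5p duplex, 0.16 and 0.16 TPM with the 3p.1 duplex, and 0.14 and 0.15 TPM in control.

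With the 3p.1 duplex against control, which shares both control libraries with the comparison above, 0 of 41 members passed the limma test, beside 0.0149% of all genes (2 genes). At an unadjusted p under 0.05, 2 members were lower and 0 higher, beside 5.62% and 1.24% of all genes (6.86% in either direction). The median log2 fold change was 0.061 over the members and -0.033 over all genes. A positive value was held by 25 of 41 members (61.0%), against 41.0% of all genes. Without control replicate 1, 18 of 41 members (43.9%) were positive, against 38.3% of all genes, and the median over the members was -0.031. With median centring the medians were 0.12 over the members and 0.023 over all genes. The 15 members whose groups of 2 did not overlap (11 higher, 4 lower) stand beside 36.3% of all genes (12.1% higher, 24.1% lower). The lowest p among the members was that of SDF2, at a log2 fold change of -0.79 (limma adjusted p = 0.117). Next came CEBPB, a transcription factor that pairs with ATF4, which had 8.43 and 7.50 TPM with the 5p duplex, 7.55 and 6.67 TPM with the 3p.1 duplex, and 9.95 and 9.07 TPM in control. Both duplex groups lay below both control libraries for CEBPB, at log2 fold changes of -0.23 with the 5p duplex and -0.37 with the 3p.1 duplex (limma adjusted p = 0.681 and 0.628).

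All 9 amino acid and folate-linked genes of the ATF4 arm, a group that here includes the tRNA exporter XPOT, had a positive log2 fold change with the 3p.1 duplex. The values ran from 0.07 to 0.24 with a median of 0.15, and none passed the test. Of all genes, 41.0% had a positive value. That share was 55.2% with quantile normalization and 56.0% with median centring, where all 9 stayed positive. In the rest of the arm, 5 of 8 transcription factors and regulators and 0 of 4 tested other effectors were positive, with medians of 0.04 and -0.23. In 6 of the 9, both 3p.1 libraries lay above both control libraries, beside 12.1% of all genes. Of 12 further amino acid enzymes and carriers, from the wider list described below, 8 were positive with a median of 0.10. In 3 of those 12, both 3p.1 libraries lay above both control libraries. The directions were not all stable: XPOT (-0.07) and MTHFD2 (-0.16) turned negative without control replicate 1, and 1 of the 9 did without control replicate 2 (SLC7A11, -0.06), 3p.1 duplex replicate 1 (SLC7A11, -0.27) or 3p.1 duplex replicate 2 (MTHFD2, -0.07). PSAT1, an enzyme of serine synthesis, had 146 and 138 TPM with the 5p duplex, 155 and 146 TPM with the 3p.1 duplex, and 133 and 137 TPM in control. PHGDH, which starts serine synthesis, had 27.6 and 35.3 TPM with the 5p duplex, 37.2 and 39.7 TPM with the 3p.1 duplex, and 29.7 and 35.3 TPM in control. The 3p.1 libraries were above control in both genes. Of the same 9 genes, 6 were positive with the 5p duplex, with a median of 0.07, and 4 without control replicate 1, with a median of -0.03.

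The direct comparison of the duplexes gave 1 call among 41 members, SDF2, beside 0.433% of all genes called (0.0821% higher, 0.351% lower with the 5p duplex). At an unadjusted p under 0.05, 1 member was higher and 3 were lower, beside 4.39% and 4.96% of all genes (9.34% in either direction). SDF2, a protein of the endoplasmic reticulum lumen related to SDF2L1, stood at 115.0 and 114.8 TPM with the 5p duplex, 60.6 and 68.6 TPM with the 3p.1 duplex, and 113 and 111 TPM in control. The 3p.1 libraries lay below all 4 others, and the 5p and control libraries lay within a few TPM of each other. The log2 fold change of the 5p duplex against the 3p.1 duplex was 0.82 with an SE of 0.09 (limma adjusted p = 0.0325), a level 1.77 times higher. With the 5p duplex against control it was 0.04 (interval -0.19 to 0.26). The size hardly depended on single libraries but the call did: it was lost without any 1 of the 6, at log2 fold changes of 0.74 without 3p.1 duplex replicate 1, 0.91 without 3p.1 duplex replicate 2, 0.83 without 5p duplex replicate 2, 0.82 without 5p duplex replicate 1 and likewise when either control library was left out. Over 9 other settings its adjusted p ran from 0.0105 to 0.0888, and 6 of the 9 kept the call.

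XBP1 was the member with the next lowest p between the duplexes, at a log2 fold change of -0.89 (interval -1.23 to -0.55, limma adjusted p = 0.103), which did not pass. SLC7A5 followed at -0.45 (interval -0.70 to -0.19, adjusted p = 0.234), CRELD2 at -0.69 (adjusted p = 0.454) and SDF2L1 at -0.50 (adjusted p = 0.593). SDF2L1 had 4.37 and 6.18 TPM with the 5p duplex and 7.68 and 7.88 TPM with the 3p.1 duplex, with 5.55 and 8.84 TPM in control. The median over the members was -0.026 and over all genes 0.005. The groups of 2 did not overlap in 14 of 41 members (4 higher, 10 lower with the 5p duplex), beside 40.4% of all genes (21.0% higher, 19.4% lower).

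**Figure D3:**
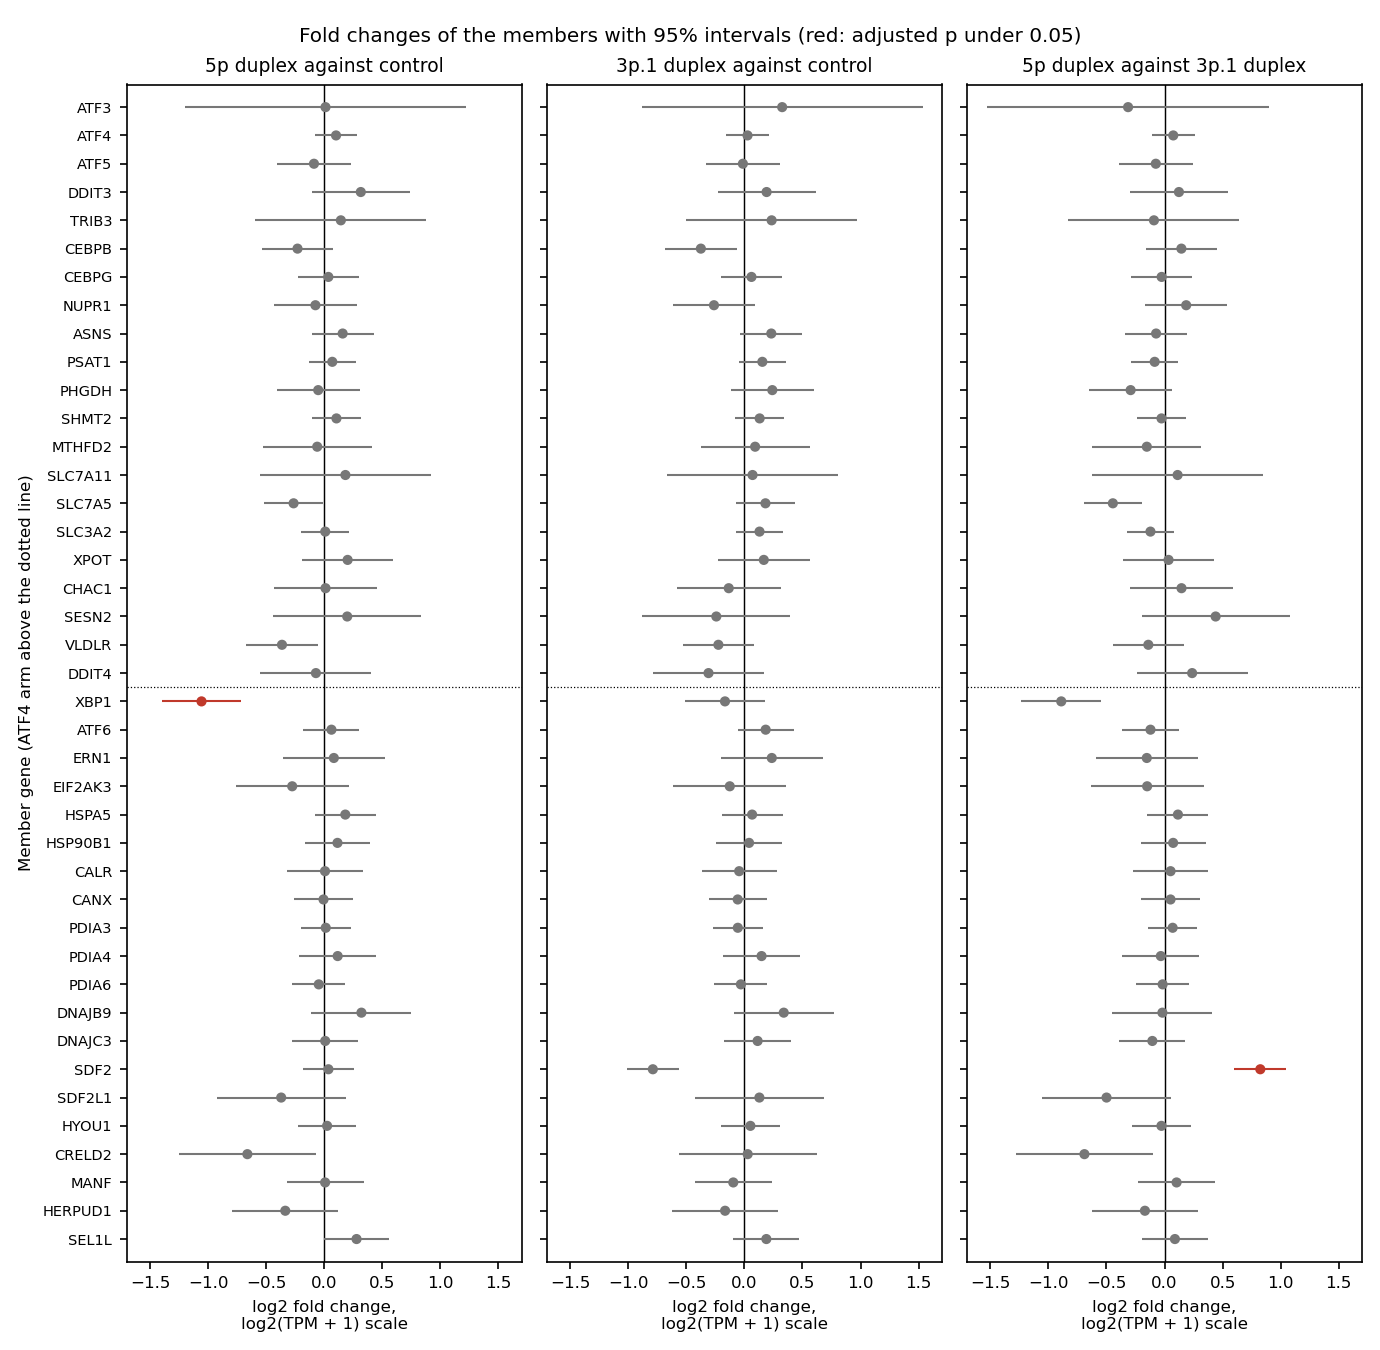
Log2 fold changes of the 41 tested members (points) with 95% intervals (lines) in the 3 comparisons, on the log2(TPM + 1) scale, in red where the adjusted p is under 0.05. XBP1 against control (-1.06) and SDF2 between the duplexes (0.82) are the red points, and most others lie close to 0.

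Members differed in how closely the libraries of a group agreed. ATF3, an early stress factor, had 5.49 and 1.90 TPM with the 5p duplex, 6.80 and 2.73 TPM with the 3p.1 duplex, and 4.55 and 2.34 TPM in control. SLC7A11, the cystine carrier, had 58.1 and 33.8 TPM, 52.0 and 32.3 TPM, and 42.8 and 35.5 TPM in the 5p, 3p.1 and control libraries. For both genes the libraries of a group lay further apart than the group means. Replicate 1 was the higher library in all 3 groups for both. The model of group means counts this shared difference as spread. Their intervals with the 5p duplex against control were -1.20 to 1.22 for ATF3 and -0.55 to 0.92 for SLC7A11. In this model, changes of a size seen for XBP1 could be missed in ATF3. For ATF4, CANX, PDIA3 and PDIA6 the intervals of the same comparison stayed within -0.28 and 0.28.

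The start sites of some members carry known stress elements. The members were taken by name for their known roles in these pathways. The counts below therefore describe the list and give no independent support for it. RefSeq promoters (GRCh38.p14, 250 bases before to 50 after the start, 35116 windows of 27305 genes) were matched for 38 of 42 members, and both strands were searched. The endoplasmic reticulum stress element, spelled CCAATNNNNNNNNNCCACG, is the element through which ATF6 and XBP1 act. It was found in 25 of all 27305 genes (0.0916%) and in 7 of the 38 members: HSPA5, HSP90B1, CALR, CANX, PDIA6, XBP1 and CRELD2, all of the endoplasmic reticulum arm. Its second form, ATTGGNCCACG, was found in HYOU1, HERPUD1 and SDF2L1 and in 0.0696% of all genes. The amino acid response core bound by ATF4, TGATGNAA, was found in 6 of the 38 members (ATF3, ASNS, SLC3A2, CHAC1, CEBPG and HERPUD1) and in 4.46% of all genes. The last motif searched, TGACGTG, the core of another element through which XBP1 and ATF6 act, was found in 1 of the 38 (HYOU1) and in 2.40% of all genes.

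The first element is shown for 4 of the genes because they hold the same letters and differ in their values, with the fixed letters in capitals, read 5′ to 3′ on the strand given. XBP1 (chr22:28800598-28800626, minus strand) and HSPA5 (chr9:125241386-125241414, minus strand) carry it 52 and 66 bases before the start. CALR (chr19:12938379-12938407) and CRELD2 (chr22:49918549-49918577) carry it on the minus strand, 225 and 80 bases before the start.
XBP1: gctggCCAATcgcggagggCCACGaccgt
HSPA5: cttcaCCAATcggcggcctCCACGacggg
CALR: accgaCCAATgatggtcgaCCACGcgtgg
CRELD2: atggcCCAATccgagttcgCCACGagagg

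Of the 7 genes with this element, XBP1 was called lower with the 5p duplex and CRELD2 stood at -0.66 without passing. The 5 chaperones HSPA5, HSP90B1, CALR, CANX and PDIA6 lay between -0.05 and 0.18. In the 3p.1 libraries the 7 genes lay between -0.17 and 0.07 and none passed. The matched letters are a description of the window and not a measured binding site.

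A wider list of 84 pathway genes (eIF2alpha kinases, eIF2 and eIF2B subunits, amino acid enzymes, tRNA synthetases, other sensors, translocation and degradation genes) gave 81 tested genes. The limma test called 0 of 81 in each of the 3 comparisons. At an unadjusted limma p under 0.05 stood 11 of 81 with the 5p duplex (5 higher, 6 lower), beside 9.16% of all genes (1.86% higher, 7.3% lower). With the 3p.1 duplex it was 2 of 81 (1 higher, 1 lower), beside 6.86% of all genes (1.24% higher, 5.62% lower). Between the duplexes it was 9 of 81 (3 higher, 6 lower), beside 9.34% of all genes (4.39% higher, 4.96% lower). SEC62, a subunit of the protein translocation machinery, had 80.1 and 72.6 TPM with the 5p duplex, 76.2 and 74.1 TPM with the 3p.1 duplex, and 47.9 and 55.0 TPM in control. All 4 duplex libraries lay above both control libraries, at log2 fold changes of 0.56 (limma adjusted p = 0.104) and 0.54 (adjusted p = 0.357). ATF6B, the relative of ATF6, had 41.4 and 49.8 TPM with the 5p duplex, 66.2 and 61.8 TPM with the 3p.1 duplex, and 67.9 and 62.5 TPM in control. Its 5p libraries were lowest, at a log2 fold change of -0.51 against control (limma adjusted p = 0.173) and -0.49 against the 3p.1 duplex (adjusted p = 0.248).

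Of the 12 tRNA synthetases, 11 had positive values with the 5p duplex and 11 with the 3p.1 duplex, beside 42.7% and 41.0% of all genes, and none passed. Other groups of the wider list differed. In the same order, positive were 10 and 10 of 13 eIF2alpha kinase, eIF2, eIF2B and phosphatase genes. So were 6 and 8 of 12 amino acid enzymes and carriers, and 1 and 1 of 5 other ATF4 or CHOP targets. Of other sensors it was 2 and 2 of 7, of translocation genes 10 and 11 of 18, and of degradation genes 6 and 8 of 14. With quantile normalization the synthetase counts stayed at 11 and 11, and the shares of all genes were 56.9% and 55.2%. Both comparisons share the control libraries, and without control replicate 1 the synthetase counts were 9 and 11. The medians over the synthetases were then 0.057 and 0.082, against 0.15 and 0.16 with all libraries. AARS, for alanine, had 89.7 and 89.8 TPM with the 5p duplex, 85.0 and 80.8 TPM with the 3p.1 duplex, and 71.0 and 75.1 TPM in control, at log2 fold changes of 0.29 and 0.18. WARS, for tryptophan, named here after its values were seen, was the exception, with 95.5 TPM in control replicate 2 and 56.9 to 65.8 TPM in the other libraries. WARS is also an interferon-inducible gene, and whether this bears on its values was not tested. The glycine carrier SLC6A9 had 0.62 and 0.94 TPM with the 5p duplex, 1.43 and 1.99 TPM with the 3p.1 duplex, and 1.77 and 2.01 TPM in control, at -0.70 with the 5p duplex (limma adjusted p = 0.242).

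Of the kinases that phosphorylate eIF2alpha, EIF2AK2 (PKR), the interferon-inducible sensor of double-stranded RNA, had 45.7 and 45.9 TPM with the 5p duplex, 37.4 and 45.6 TPM with the 3p.1 duplex, and 47.1 and 130 TPM in control. A single library, control replicate 2, stood apart, the one with the highest interferon genes. The log2 fold changes were -0.77 with the 5p duplex and -0.91 with the 3p.1 duplex and did not pass. Without control replicate 1, which leaves only that library as control, the log2 fold changes were -1.49 and -1.64 (limma adjusted p = 0.0166 and 0.0123), with the lone control library assumed to vary like the other groups. EIF2AK1 (104.9 to 142 TPM over the 6 libraries) and EIF2AK4 (48.3 to 59.5 TPM) gave no call. PPP1R15A (GADD34), the phosphatase subunit that ends the response and an ATF4 target, had 41.8 and 34.8 TPM with the 5p duplex, 39.8 and 30.7 TPM with the 3p.1 duplex, and 29.97 and 28.56 TPM in control. All 4 duplex libraries lay above control, at log2 fold changes of 0.37 (limma adjusted p = 0.538) and 0.25 (adjusted p = 0.841). PPP1R15B, its constitutive relative, lay at 0.12 and -0.11.

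**Figure D4:**
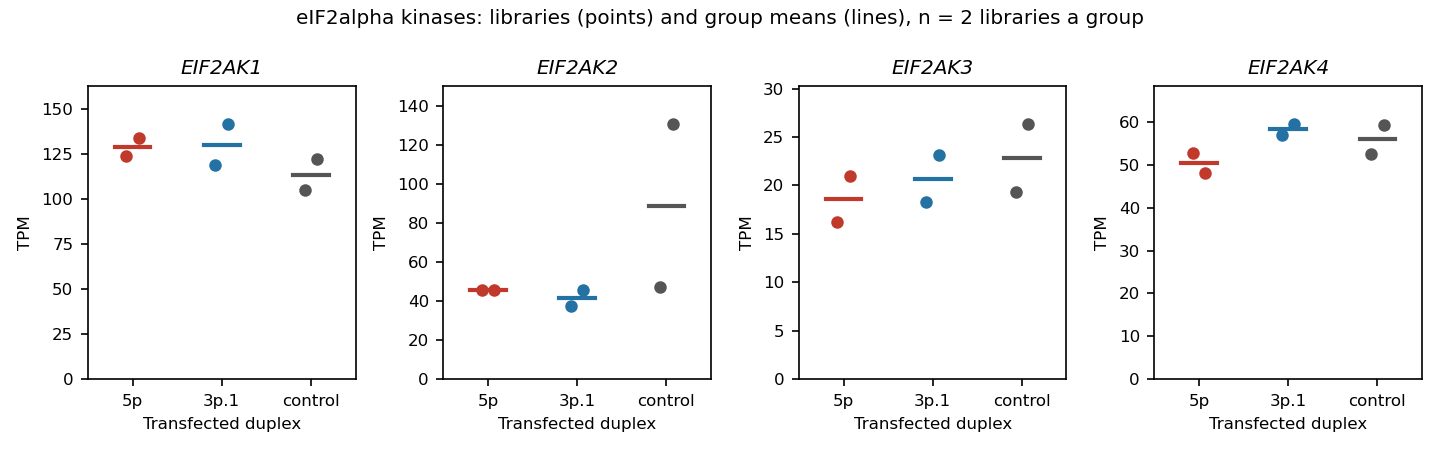
TPM of the 4 kinases of eIF2alpha in each library (points) with group means (lines), n = 2 libraries a group. EIF2AK2 reaches 130 TPM in control replicate 2 and 37.4 to 47.1 TPM in the other 5 libraries, while the other kinases overlap between groups or lie close.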

How the data were processed

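The authors deposited TPM per gene symbol for each of 6 libraries. Per the submitters' processing notes, the tool was RSEM and the build GRCh38. The annotation and versions behind the TPM were not given in the sources used here. Per the labels' protocols, oligo-dT selected RNA gave strand-specific libraries with paired reads of 100 bp. TPM keeps no read number, so depth is unknown and no count test, counting interval or floor was used. Symbols missing from a library's list counted as 0. The tests used log2(TPM + 1), a scale on which changes of low genes look smaller, for the 13400 genes whose mean over the libraries reached 1 TPM. One model of group means over all 6 libraries was fitted with limma 3.58.1 in R 4.3.3 (variance trend, 3 residual and 3.38 prior degrees of freedom), with Benjamini-Hochberg adjustment over all genes tested, two-sided. On simulated data the script was checked for known changes. Intervals are 95% intervals of the model. Per-library values are given for members called in any comparison, the 6 members with the lowest p in each, and the central factors and sensors; further members were added to show site or role, and EIF2AK1 to EIF2AK4, PPP1R15A and PPP1R15B were always given. The members, the wider list and the interferon genes were chosen with earlier results of these data known. Sites and promoter letters were searched with Python. Alternatives were the pseudocount, the minimum, the trend, the libraries fitted, quantile normalization, median centring, a replicate block and leaving out each library.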

Additional observations from a re-analysis of the deposited data

How the results depend on the processing

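None of the 15 alternatives turned the direction of any of the 6 members with the lowest p in each comparison (14 alternatives for VLDLR with the 5p duplex, which a minimum of 5 TPM left out). The 1 member called with the 5p duplex against control (XBP1) became 0 with a pseudocount of 5 TPM, with no minimum, with no variance trend, with only the compared libraries and with quantile normalization, and 2 with the replicate block, and 0 to 1 without single libraries. The 1 member called between the duplexes (SDF2) became 0 with no minimum, with no trend and with only the compared libraries, 4 with the replicate block, and 0 without any single library. Against control, the 3p.1 duplex gave 0 called members, 1 with the replicate block and 0 without any single library. The cause of these shifts was not tested. The median over the members with the 5p duplex was 0.068 with median centring and ran from -0.045 to 0.069 without single libraries. With the 3p.1 duplex it was 0.12 with median centring and ran from -0.031 to 0.089. Between the duplexes it was -0.012 with quantile normalization and ran from -0.026 to 0.010. All genes called numbered 367, 30 and 278 with the replicate block against 62, 2 and 58 without it.

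Replicate numbers are shared between groups, but nothing in the labels ties equal numbers together. Deviations of equally numbered libraries correlated at 0.265 (5p duplex and control), 0.375 (3p.1 duplex and control) and 0.383 (5p and 3p.1 duplex) across genes, with 2 libraries a group. The block added CRELD2 with the 5p duplex (adjusted p = 0.0202), SDF2 with the 3p.1 duplex (0.0387), and XBP1 (0.0121), SLC7A5 (0.0492) and CRELD2 (0.0190) between the duplexes; in the wider list it added SEC62 with the 5p duplex (0.0441). The replicate difference had the same sign in all 3 groups in 24 of 41 members (58.5%), against 51.4% of all genes. Among the other members, 118 of 1564 values under alternatives changed sign, all but 6 of them from values smaller than their standard error; the 6 were XPOT with each duplex and PDIA4 with the 3p.1 duplex, all without control replicate 1, XBP1 with the 3p.1 duplex without control replicate 2, DDIT3 with the 3p.1 duplex without 3p.1 duplex replicate 1, and NUPR1 between the duplexes without 5p duplex replicate 2. TPM hide depth, so the precision of low genes such as STC2, SLC6A9 and ERN1 is unknown.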
